A study of Mus musculus with 16 samples.

Results

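The genes described here are 10 genes that mark macrophages resident in tissue: Csf1r, Cd14, Mrc1, Cd163, Cx3cr1, Aif1, Cd68, C1qa, C1qb and C1qc. Every probe set whose platform annotation gives exactly 1 gene symbol, and that symbol is 1 of these 10, was taken, which gave 15 of the 45037 probe sets tested and 10 of the 18193 genes with a probe set. Csf1r and C1qb had 3 probe sets each, Cx3cr1 had 2 and the other members had 1.

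The RNA came from the ascending aorta and from the aortic valve (cusp, annulus and root) of Eln+/+ mice and of Eln+/- mice, which carry 1 inactive allele of the elastin gene, all at 30 days of age and with no treatment. The 16 arrays form 4 groups of 4, given by tissue and genotype. Each array held amplified RNA of 1 specimen with no pooling, per the labels' protocols, and it is not stated if same-numbered aorta and valve pieces share a mouse. The genotype is that of the whole animal rather than of a chosen cell type, and the labels give neither strain nor sex.

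Macrophages of the arterial wall and the heart valves are phagocytes that clear dead cells and debris, remodel matrix and sense injury, and they are held in the tissue by survival signals through the receptor of colony-stimulating factor 1. In mice many of them are seeded before birth and renew in place, while others come from blood monocytes. The surface receptors among the members take up or sense ligands, and the C1q chains are secreted and start the classical complement pathway.

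The deposited values are ratios of the signal of a probe set to its own median over the arrays, given here as log2, so 0 stands for the median of that probe set. They hold no level, so the members can be compared between arrays but not with each other, and whether a gene was expressed at all cannot be read from them. In RNA of whole tissue, fewer macrophages and less RNA per macrophage cannot be told apart. The arrays had median ratios of 0.957 to 1.01. The tissue labels were checked with Myh6, a heart muscle myosin gene, which was 4.98 log2 units higher in valve than aorta pieces (adjusted p = 0.000309 in limma), and with the smooth muscle myosin gene Myh11, which was lower by that comparison at -1.20 (adjusted p = 0.00309). The aorta pieces were not alike in Myh6. It stood at -0.65 on aorta Eln+/+ replicate 2 and -0.73 on aorta Eln+/- replicate 3. The other aorta arrays were at -5.94 to -4.18, and the lowest valve array was at 0.45. Eln, the gene of the mutated allele, stood at 0.05 to 0.48 in aorta Eln+/+, -0.64 to 0.13 in aorta Eln+/-, -1.19 to 0.04 in valve Eln+/+ and -2.62 to -0.81 in valve Eln+/-. The Eln+/- minus Eln+/+ difference of Eln was -0.42 for the aorta and -1.27 for the valve, and limma gave adjusted p of 0.900 and 0.395. All 8 Eln+/- arrays had a female pattern, with Xist, the RNA of the inactive X chromosome, at its upper values and Y-linked genes at their lower ones. In the Eln+/+ groups this held for 2 of 8 arrays, replicate 4 of the aorta and replicate 2 of the valve, so genotype and sex largely cannot be told apart. The same-numbered Eln+/+ pieces of replicates 2 and 4 thus differed in sex pattern between the tissues, so as labelled they do not share a mouse.

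Array aorta Eln+/- replicate 2 stood apart from the other aorta arrays in these genes, and the members' results are given with and without it. It was the highest of the 8 aorta arrays for 10 of 10 members, where it was the highest for 20.6% of all genes, and the highest of all 16 arrays for 5 members. It was also the lowest of the 8 for 20.4% of all genes, and both shares were the largest of any aorta array. The mean log2 ratio of the members was 0.99 on that array, against -0.78 on aorta Eln+/- replicate 1, -0.38 on replicate 3 and -1.11 on replicate 4. Replicate 4 was the lowest of the 8 aorta arrays for 6 members, Cd14, Csf1r, Cd163 and the C1q genes, against 12.4% of all genes. The mean over the members was -0.43 ± 0.12 (SD, n = 4) in aorta Eln+/+, -0.32 ± 0.92 (SD, n = 4) in aorta Eln+/-, 0.28 ± 0.26 (SD, n = 4) in valve Eln+/+ and 0.42 ± 0.07 (SD, n = 4) in valve Eln+/-. Without replicate 2 the aorta Eln+/- mean was -0.76 ± 0.37 (SD, n = 3), and then every aorta array lay below every valve array in this mean. That array was singled out because it was high in these genes, so leaving it out moves their valve minus aorta differences up by construction. The shares of all genes printed beside counts without it do not carry that choice, and nothing is read from the contrast.

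**Figure D1:**
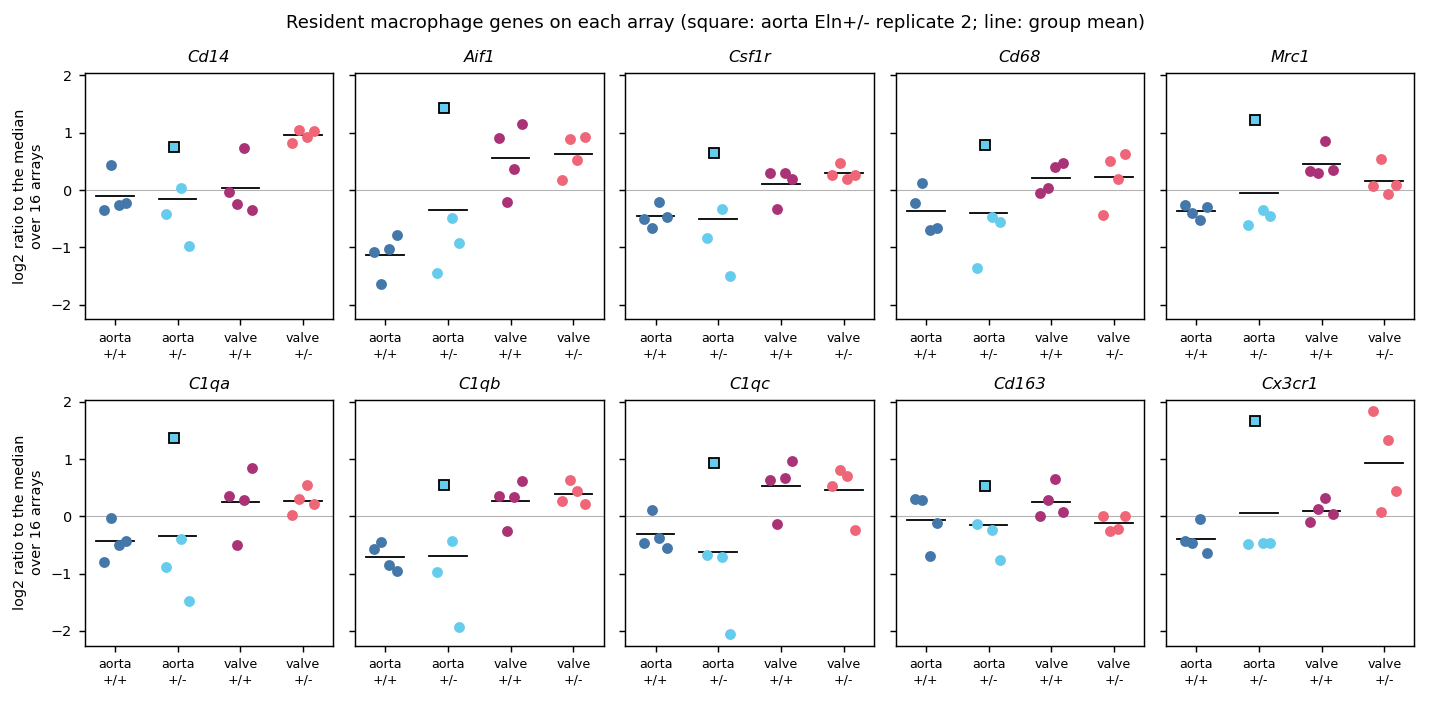
Log2 ratio of each of the 10 genes on each of the 16 arrays (vertical axis: log2 ratio to the median over the 16 arrays), with 1 point per array, the group mean as a line and aorta Eln+/- replicate 2 as a square. The square is the highest aorta value in every panel, up to 1.66 for Cx3cr1, and the other aorta values lie mostly below the valve values.

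Several lists of other blood cell genes and the adipocyte list were high on the same array, and others were not. The list means of aorta Eln+/- replicate 2 were the highest of all 16 arrays for T cells and thymocytes (1.28 over 11 measured genes), erythroid cells (1.48 over 5), B cells (1.06 over 6), monocytes and neutrophils (1.07 over 11) and general leukocyte genes (1.00 over 13). The range on the other 15 arrays ran from -0.42 to 0.66 for the T cell list and from -0.26 to 0.54 for the monocyte and neutrophil list. The erythroid mean was also high on aorta Eln+/+ replicate 2, at 1.34, where the mean of the members was -0.27. For dendritic cells aorta Eln+/- replicate 2 had a mean of 0.12 and was the fifth highest of the arrays, and for mast cells it had a mean of -0.00 and was the sixth. Its adipocyte mean was 2.60 over 5 genes, the second highest of the arrays. The list of other resident macrophage markers was highest on it too, at 0.92 over 22 genes. Its smooth muscle mean, -0.92 over 9 genes, was the lowest of the aorta arrays. Replicate 4 of the same group, the array lowest in the members, had the T cell mean of 0.66. The part of these cells in the members' values was not tested.

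**Figure D2:**
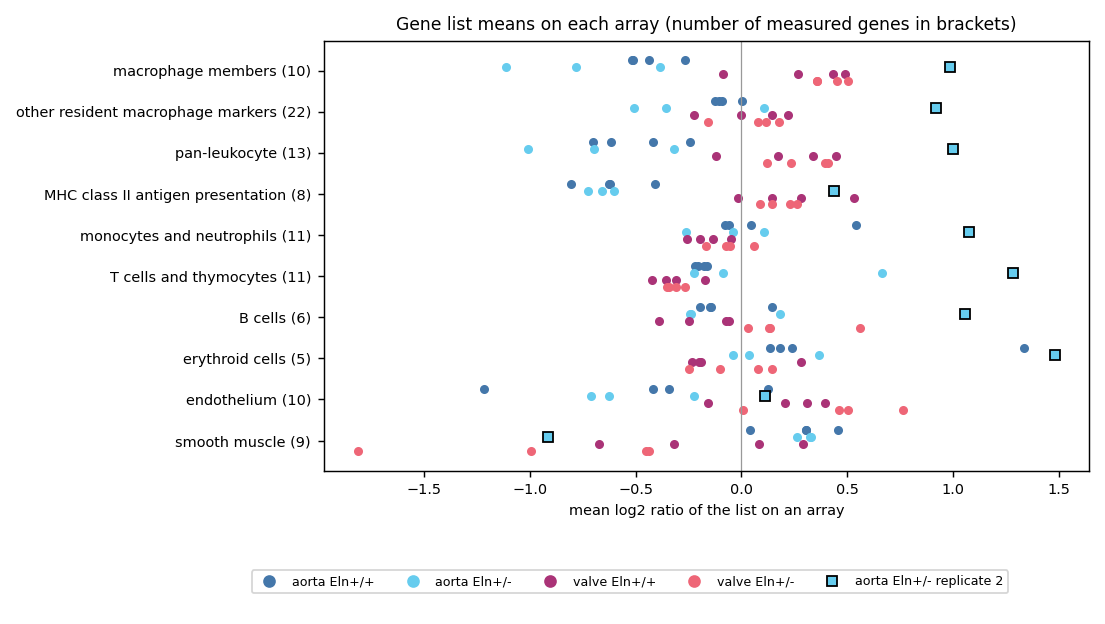
Mean log2 ratio of each gene list on each array (horizontal axis, in log2 units), with 1 point per array coloured by group and aorta Eln+/- replicate 2 as a square. The square lies at 0.99 for the members and at 1.28 for T cells and thymocytes, while the other aorta points of the members and of the general leukocyte list lie below their valve points.

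All 10 members were higher in the valve than in the aorta when both genotypes were averaged, by a median of 0.66 log2 units or 1.58-fold, where the median of all genes was -0.03. Of these, 2 of 10 passed the test, Aif1 and C1qb, against 5.83% of all genes called higher (limma over all 16 arrays, adjusted p under 0.05). The differences ran from 0.17 for Cd163 to 1.33 for Aif1, and 8 of 10 had an unadjusted p under 0.05. All 15 probe sets were higher, and 5 of them passed. With aorta Eln+/- replicate 2 left out the median was 0.91, or 1.88-fold, and 9 of 10 members passed, all but Cd163, against 7.19% of all genes. Since that array was chosen as high in the members, this rise comes by construction and nothing is read from that share.

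**Figure D3:**
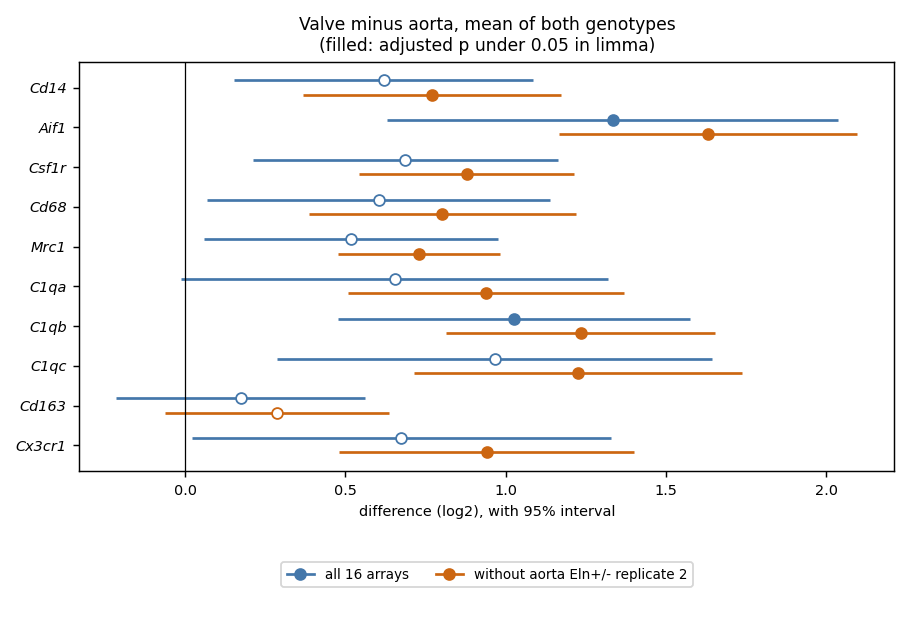
Valve minus aorta difference of each gene (horizontal axis, log2) as the mean of both genotypes, with its 95% interval from limma, over all 16 arrays and without aorta Eln+/- replicate 2. Filled points passed at an adjusted p under 0.05: 2 genes with all arrays and 9 without that array.

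Aif1 encodes a calcium-binding protein of the macrophage cytoskeleton, also known as Iba1, and had the widest tissue difference of the members. Its log2 ratios were -1.07, -1.64, -1.02 and -0.78 in aorta Eln+/+ and 0.91, -0.20, 0.36 and 1.15 in valve Eln+/+. In the Eln+/- groups they were -1.45, 1.44, -0.48 and -0.93 in the aorta and 0.18, 0.90, 0.52 and 0.93 in the valve. All valve values lay above all aorta values but that of Eln+/- replicate 2, which was the highest of the 16. The difference of the tissues was 1.33 ± 0.33 (SE), or 2.52-fold (limma, adjusted p = 0.0203). It stayed past the threshold under all 27 alternatives run for this comparison, with adjusted p of 0.000134 to 0.0477. Without that array it was 1.63 ± 0.22 (SE), or 3.10-fold, with an adjusted p of 0.000311.

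C1qa, C1qb and C1qc encode the chains of C1q, the recognition unit of the classical complement pathway, which macrophages make and release. The RefSeq table of GRCm38.p6 places them side by side on chromosome 4, C1qb at chr4:136880126-136886200, C1qc at chr4:136889801-136892936 and C1qa at chr4:136895916-136898844. The bases upstream of C1qb and C1qc are shown because these neighbours moved most alike of all pairs of members, and those of Mrc1 because it held the most matches. The capitals mark the letters AGGAAG or, read on the other strand, CTTCCT, the core bound by PU.1 and other ETS factors, of which PU.1 is needed to form macrophages. The sequences are from RefSeq, GRCm38.p6, 5′ to 3′ on the strand of the gene and ending where the gene begins: C1qb from the minus strand at chr4:136886201-136886450, C1qc from the minus strand at chr4:136892937-136893164 and Mrc1 from the plus strand at chr2:14229164-14229413.
C1qb: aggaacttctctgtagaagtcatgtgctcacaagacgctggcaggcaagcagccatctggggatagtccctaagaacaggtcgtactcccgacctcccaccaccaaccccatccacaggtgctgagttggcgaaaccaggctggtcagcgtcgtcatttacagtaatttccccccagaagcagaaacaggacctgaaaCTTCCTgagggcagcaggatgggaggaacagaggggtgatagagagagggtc
C1qc: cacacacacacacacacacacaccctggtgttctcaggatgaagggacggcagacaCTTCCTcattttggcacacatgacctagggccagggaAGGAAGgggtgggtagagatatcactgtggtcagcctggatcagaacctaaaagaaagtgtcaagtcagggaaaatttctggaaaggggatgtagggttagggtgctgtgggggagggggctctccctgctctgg
Mrc1: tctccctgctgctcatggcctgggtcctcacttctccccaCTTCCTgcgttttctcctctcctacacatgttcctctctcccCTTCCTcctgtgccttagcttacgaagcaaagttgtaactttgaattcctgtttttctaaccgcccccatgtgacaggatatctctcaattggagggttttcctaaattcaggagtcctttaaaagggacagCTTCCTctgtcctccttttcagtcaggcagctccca
A promoter was listed for 7 of the 10 members, Aif1, Cd68, Mrc1, C1qb, C1qc, Cd163 and Cx3cr1. For each, the search took the 250 bases before the start site that the table uses, and the letters were found in 3 of the 7. For C1qc that site lies inside the gene, so the last 22 of its 250 bases were searched but are not printed. Counted back from the end of each printed sequence, the matches began at 52 bases in C1qb, at 172 and 135 in C1qc, and at 210, 168 and 36 in Mrc1. The same letters were in 29.5% of the 32851 promoters of the table, and the match is a description of letters only.

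C1qb was higher in valve than aorta pieces with each of its 3 probe sets, by 0.88 to 1.03 log2 units and limma gave adjusted p of 0.0218 to 0.0267. The log2 ratios of the probe set of highest SD were -0.57, -0.45, -0.85 and -0.96 in aorta Eln+/+ and 0.35, -0.26, 0.33 and 0.62 in valve Eln+/+. In the Eln+/- groups they were -0.97, 0.55, -0.43 and -1.94 in the aorta and 0.26, 0.63, 0.44 and 0.22 in the valve. The Eln+/+ groups did not overlap, while in Eln+/- aorta replicate 2 lay among the valve values and replicate 4 was the lowest of all arrays. The difference of 1.03 ± 0.26 (SE), or 2.04-fold, was 1.23 ± 0.20 (SE) without replicate 2, and it passed under 26 of 27 alternatives. The exception was the fit without valve Eln+/+ replicate 4, with an adjusted p of 0.0502.

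C1qc differed by 0.97 ± 0.32 (SE) (limma, adjusted p = 0.0806), and by 1.23 ± 0.24 (SE) without aorta Eln+/- replicate 2, with an adjusted p of 0.00411. Its group values ran from -0.55 to 0.12 in aorta Eln+/+, -2.06 to 0.93 in aorta Eln+/-, -0.13 to 0.96 in valve Eln+/+ and -0.24 to 0.82 in valve Eln+/-, so the tissues overlapped in both genotypes. C1qa differed by 0.65 ± 0.31 (SE), with an adjusted p of 0.252, and by 0.94 ± 0.20 (SE) without that array, with an adjusted p of 0.00754. It ran from -0.79 to -0.03 in aorta Eln+/+, -1.48 to 1.37 in aorta Eln+/-, -0.50 to 0.85 in valve Eln+/+ and 0.03 to 0.54 in valve Eln+/-. In both genes the lowest value of all arrays was that of aorta Eln+/- replicate 4.

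Csf1r encodes the receptor of the growth factors Csf1 and IL-34, on which most tissue macrophages depend. With its probe set of highest SD the log2 ratios were -0.50, -0.66, -0.21 and -0.47 in aorta Eln+/+ and 0.29, -0.32, 0.29 and 0.19 in valve Eln+/+. In the Eln+/- groups they were -0.84, 0.65, -0.34 and -1.49 in the aorta and 0.26, 0.48, 0.18 and 0.26 in the valve. All valve values lay inside the range of the aorta values, whose highest was aorta Eln+/- replicate 2, and valve Eln+/+ replicate 2 was the lowest of the valve arrays. The tissue difference was 0.69 ± 0.22 (SE) (limma, adjusted p = 0.0758), and 0.88 ± 0.16 (SE) without aorta Eln+/- replicate 2, with an adjusted p of 0.00234. The probe sets of this gene disagreed on the call: 1 differed by 0.80 ± 0.20 (SE) and passed with an adjusted p of 0.0190, and the third differed by 0.22 ± 0.15 (SE) with an adjusted p of 0.459.

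Among the receptors for sensing and uptake, Cd14, the co-receptor for bacterial lipopolysaccharide, was the member whose tissue difference passed within Eln+/- mice over all arrays. Its log2 ratios were -0.42, 0.75, 0.03 and -0.97 in aorta Eln+/- and 0.82, 1.05, 0.92 and 1.04 in valve Eln+/-. These groups did not overlap, and the valve values lay close to each other. In the Eln+/+ groups the ratios were -0.35, 0.45, -0.26 and -0.23 in the aorta and -0.03, -0.24, 0.73 and -0.34 in the valve, which overlapped throughout. The valve minus aorta difference was 1.11 ± 0.31 (SE) in Eln+/-, with an adjusted p of 0.0467 in limma, and 0.13 ± 0.31 (SE) in Eln+/+, with an adjusted p of 0.914. The difference between these effects was 0.98 ± 0.44 (SE), and its adjusted p of 0.638 missed the threshold. The Eln+/- call was close to the threshold and held under 10 of 28 alternatives, with adjusted p of 0.0033 to 0.14.

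Mrc1, the mannose receptor CD206, takes up glycoproteins and microbes. Its log2 ratios were -0.26, -0.40, -0.52 and -0.30 in aorta Eln+/+ and 0.34, 0.29, 0.86 and 0.35 in valve Eln+/+. In the Eln+/- groups they were -0.61, 1.22, -0.35 and -0.45 in the aorta and 0.07, 0.54, -0.07 and 0.09 in the valve. Aorta Eln+/- replicate 2 was the highest of all arrays, and the other 7 aorta values lay below all 8 valve values. The tissue difference was 0.52 ± 0.22 (SE) over all arrays, with an adjusted p of 0.177 in limma, and 0.73 ± 0.12 (SE) without that array, with an adjusted p of 0.00119.

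Cd163, the scavenger receptor for haemoglobin bound to haptoglobin, had the narrowest tissue difference, 0.17 ± 0.18 (SE) (limma, adjusted p = 0.674) and a 95% interval of -0.21 to 0.56. It ran from -0.70 to 0.31 in aorta Eln+/+, -0.76 to 0.52 in aorta Eln+/-, 0.00 to 0.66 in valve Eln+/+ and -0.25 to 0.00 in valve Eln+/-, so all 4 groups overlapped. It passed under none of the 27 alternatives, and without aorta Eln+/- replicate 2 the difference was 0.29 with an adjusted p of 0.332.

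Cd68, a glycoprotein of the macrophage lysosome, differed by 0.60 ± 0.25 (SE) (limma, adjusted p = 0.177), and by 0.80 ± 0.20 (SE) without that array, with an adjusted p of 0.0157. It ran from -0.70 to 0.12 in aorta Eln+/+, -1.37 to 0.79 in aorta Eln+/-, -0.04 to 0.47 in valve Eln+/+ and -0.43 to 0.62 in valve Eln+/-. Both tissues overlapped in each genotype.

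Cx3cr1 is the receptor of fractalkine, the ligand that the gene Cx3cl1 encodes. With its probe set of highest SD the log2 ratios were -0.43, -0.47, -0.04 and -0.63 in aorta Eln+/+ and -0.10, 0.13, 0.31 and 0.04 in valve Eln+/+. In the Eln+/- groups they were -0.48, 1.66, -0.46 and -0.47 in the aorta and 1.84, 0.07, 1.34 and 0.45 in the valve. The other aorta Eln+/- arrays were nearly alike, and valve Eln+/- replicates 1 and 3 stood above all other valve arrays. The tissue difference was 0.67 ± 0.31 (SE) (limma, adjusted p = 0.224), and 0.94 ± 0.22 (SE) without aorta Eln+/- replicate 2, with an adjusted p of 0.0109. The other probe set differed by 0.30 ± 0.12 (SE), with an adjusted p of 0.161.

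Within Eln+/+ mice, whose aorta arrays do not include the one that stood apart, 10 of 10 members were higher in the valve, with a median of 0.63 and a range of 0.13 for Cd14 to 1.68 for Aif1. None passed in limma over all arrays, against 1.19% of all genes called higher, while 3 had an unadjusted p under 0.05. The smallest adjusted p was 0.13, that of Aif1. The groups did not overlap for 3 members, Aif1, Mrc1 and C1qb, against 4.19% of all genes higher in this way. The aorta Eln+/- arrays bear on this comparison through the shared estimate of the spread: without replicate 2 the same differences gave 2 calls, Aif1 with an adjusted p of 0.0115 and Mrc1 with 0.0196, against 1.41% of all genes. Replicate 2 was chosen as high in the members, so their spread narrows by construction and nothing is read from that share.

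Within Eln+/- mice, 10 of 10 members were higher in the valve, with a median of 0.83 and a range of 0.04 for Cd163 to 1.11 for Cd14. Of these, 1 of 10 passed, Cd14, against 4.41% of all genes. Cd14 was also the 1 member whose groups did not overlap, against 6.97% of all genes. Without aorta Eln+/- replicate 2 the median was 1.29, or 2.45-fold, and 9 of 10 members passed, all but Cd163, against 5.49% of all genes. Then the groups did not overlap for 9 of 10 members, against 11.2% of all genes. The differences were 1.60 for C1qc, 1.58 for Aif1, 1.41 for Cd14 and 1.39 for Cx3cr1. With both genotypes together and that array left out, the 7 aorta arrays lay below all 8 valve arrays for 3 members, Aif1, Mrc1 and C1qb, against 2.2% of all genes. That array was left out because it was high in the members, so their counts and differences without it rise by construction. Nothing is read from the shares of all genes beside them.

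**Figure D4:**
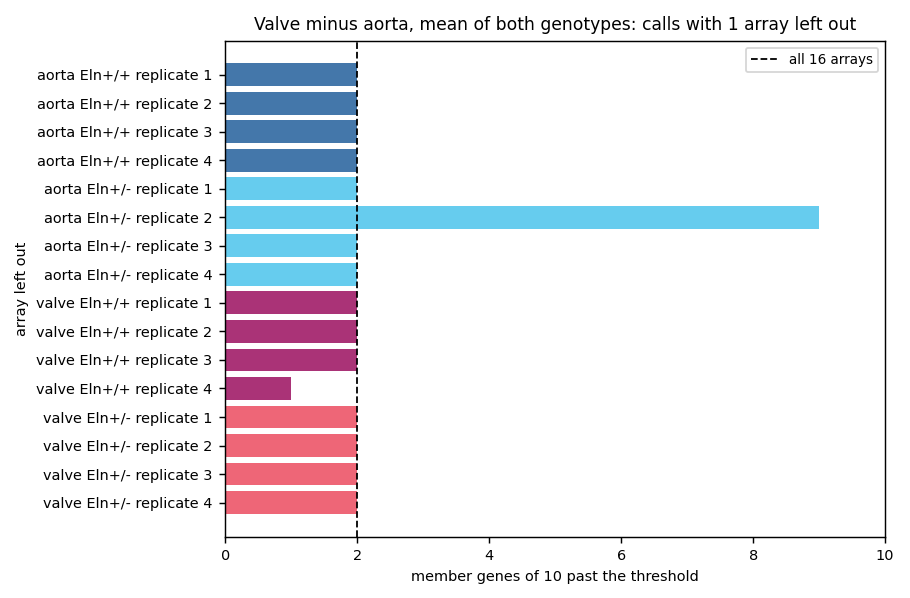
Number of the 10 genes past an adjusted p of 0.05 for valve minus aorta, mean of both genotypes (horizontal axis), when each of the 16 arrays was left out in turn (vertical axis), with a dashed line at the 2 genes called with all arrays. The count was 9 without aorta Eln+/- replicate 2, 1 without valve Eln+/+ replicate 4 and 2 without each of the other arrays.

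The Eln genotype gave no call among the members in either tissue. In the aorta 5 members were higher and 5 lower in Eln+/- than in Eln+/+, with a median of -0.01 and a range of -0.31 for C1qc to 0.77 for Aif1. None had an unadjusted p under 0.05, and the adjusted p of limma lay between 0.896 and 0.998. Leaving out aorta Eln+/- replicate 2 moved the median to -0.38, with 9 members lower and 1 higher, and still gave no call. C1qc was then at -0.83 ± 0.35 (SE), the only member with an unadjusted p under 0.05, and its adjusted p was 0.972. The 95% interval of the C1qb difference over all arrays ran from -0.76 to 0.79, and that of Csf1r from -0.72 to 0.63. With 4 arrays a group, changes of either sign within those bounds were not excluded. Of all probe sets on the array limma called 0 for genotype in the aorta, and 2480 had an unadjusted p under 0.05.

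In the valve 7 members were higher and 3 lower in Eln+/- mice, with a median of 0.05 where that of all genes was 0.03. Cd14 had the widest difference, 0.93 ± 0.31 (SE) or 1.90-fold, with a 95% interval of 0.27 to 1.59 and an adjusted p of 0.424 in limma, so it did not pass. Its valve groups did not overlap, with 0.82 to 1.05 in Eln+/- against -0.34 to 0.73 in Eln+/+, and it was the 1 member of which that holds, against 3.51% of all genes. Cx3cr1 followed with 0.83 ± 0.44 (SE) and an adjusted p of 0.620, and its other probe set differed by 0.04. Cd163 was at -0.37 ± 0.26 (SE), Mrc1 at -0.30 and C1qc at -0.08, and the remaining members lay between 0.01 and 0.18. The cardiac muscle list had a mean of 0.59 to 1.73 on the valve Eln+/+ arrays and 1.56 to 2.47 on the valve Eln+/- arrays. With that mean as a covariate among the valve arrays the median of the members was -0.16 and no member passed. Of all probe sets limma called 0 for genotype in the valve, and 3873 had an unadjusted p under 0.05.

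**Figure D5:**
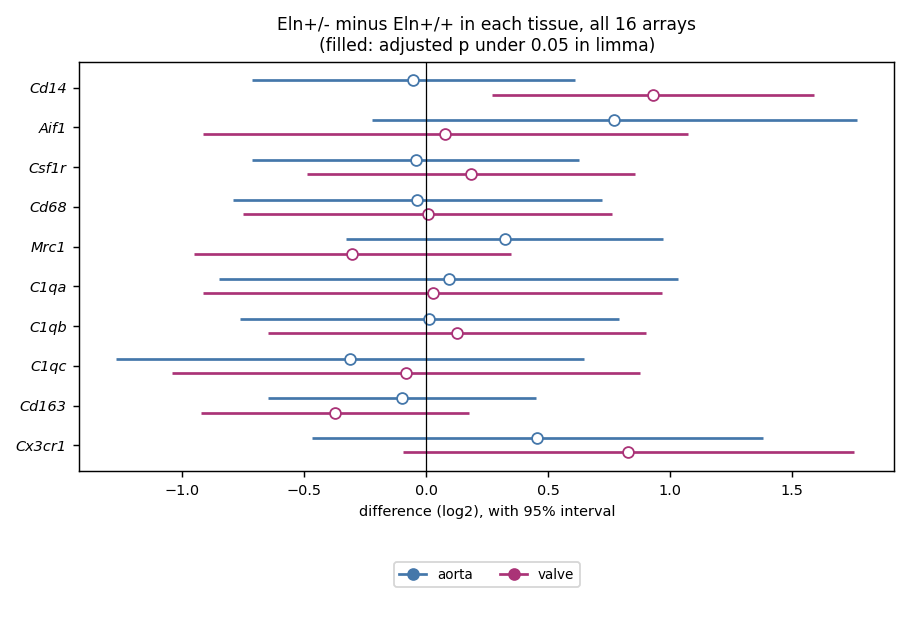
Eln+/- minus Eln+/+ difference of each gene (horizontal axis, log2) in the aorta and in the valve, with its 95% interval from limma over all 16 arrays; open points did not pass. All intervals but that of Cd14 in the valve, 0.27 to 1.59, hold 0.

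The interaction, which sets the genotype effect in the valve against that in the aorta, passed for no member in limma, with 6 interaction estimates above 0 and 4 below, and adjusted p of 0.638 to 0.987. Cd14 had the smallest adjusted p and the highest estimate, 0.98 ± 0.44 (SE), with an unadjusted p of 0.0407. The other members had unadjusted p above 0.05, and over all probe sets 0 passed, with 3477 at an unadjusted p under 0.05.

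The members varied together over the 16 arrays, and much less so without aorta Eln+/- replicate 2. After the group means were taken out, all 45 pairs of members correlated positively over the 16 arrays, with Pearson r of 0.279 for Aif1 with Cd163 to 0.941 for C1qb with C1qc and a median of 0.698. Without aorta Eln+/- replicate 2, 34 of 45 pairs were positive, the median was 0.252 and the range was -0.526 for Cd68 with Cx3cr1 to 0.874 for C1qb with C1qc. Cx3cr1 then had a mean r of -0.187 with the other members and C1qb 0.457, the highest. The points share array, amplification and RNA, so these values are descriptions. Between probe sets of 1 gene, r over the 16 arrays was 0.936 to 0.992 for C1qb, 0.578 to 0.950 for Csf1r and 0.627 for Cx3cr1. Here the group means were left in, so these r are not to be set beside those of the pairs.

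Over all genes, the deviations most like those of the mean of the members over the 16 arrays were those of Tyrobp, an adaptor of myeloid receptors, with r of 0.965, and then Rgs10, Lyz2, Ccl9, Lyz1, Marcks, Cdca3 and Pf4, with r of 0.954 to 0.921. Lyz1 and Lyz2 encode lysozymes and share sequence, so their probe sets may read each other. The 4 genes with the most opposed deviations were Rnf144b, Clcn2, Faxc and Tns1, with r of -0.947 to -0.925. Without aorta Eln+/- replicate 2, over 15 arrays, the closest were Atp11a with r of 0.940 and Ccl9, a chemokine gene, with 0.905, then Ect2, Gas2, Zfp948, Cotl1, Il18 and Ccnk down to 0.867. Ccl9 was the 1 gene of both sets of 8. The most opposed were then Agr2, Abcc5, 1810010K12Rik and F13b, with r of -0.945 to -0.895.

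The upstream partners of the members were measured too, and the tissue differences given next are the mean of both genotypes over all arrays, with adjusted p from limma. The ligands of Csf1r did not pass: Csf1 was at 0.19 with an adjusted p of 0.530 and Il34 at 0.28 with 0.156. In the list of Csf1r signalling and its transcription factors, 2 of 14 measured genes rose in the valve and none fell, with a median of 0.25. They were Runx1, a factor of blood cell formation, at 0.96 (adjusted p = 0.00198) and Irf8, a factor of the myeloid line, at 1.05 (adjusted p = 0.00232). Tyrobp stood at 1.09 with an adjusted p of 0.0588, and Spi1, the gene of PU.1, at 0.22 with 0.309. When aorta Eln+/- replicate 2 was left out the list had 6 calls, with Tyrobp at 1.42 (adjusted p = 0.000244) and Spi1 at 0.32 (adjusted p = 0.0366) among them. Runx1 was then at 1.02 and Irf8 at 1.17, and the ligands Csf1 and Il34 at 0.15 and 0.31. Of all genes 5.83% were called higher with all arrays. Without that array 7.19% were called higher and 12.3% in either direction. That array was also the highest aorta array in the means of this list and of the lipopolysaccharide and complement lists. The same held for the lists of other macrophage markers, MHC class II, leukocytes and the lysosome. Leaving it out moves these means up in valve minus aorta by construction, and nothing is read from added calls.

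For Cd14 signalling, all 10 measured genes of the lipopolysaccharide list were higher in the valve as the mean of both genotypes, though not all within each genotype. The median was 0.18, and 2 passed in limma: Lbp, which hands lipopolysaccharide to Cd14, at 1.10 (adjusted p = 0.00636) and Ly86, a partner of the receptor Cd180, at 1.23 (adjusted p = 0.0337). Both passed without aorta Eln+/- replicate 2 as well, at 1.21 and 1.54. Tlr4, the signalling receptor, was at 0.29 with an adjusted p of 0.579 in limma and its partner Ly96 at 0.16 with 0.825, and without that array they were at 0.27 and 0.18. Within 1 genotype each was lower in the valve, Tlr4 at -0.19 in Eln+/+ and Ly96 at -0.34 in Eln+/-. Tlr4 stood at 1.80 on valve Eln+/- replicate 3 and at -0.47 to -0.18 on the other valve arrays. In the complement list 1 of 12 genes rose, the anaphylatoxin receptor gene C5ar1 at 0.97 (adjusted p = 0.0335), and the median was -0.03. Over the 15 arrays without aorta Eln+/- replicate 2 the calls were 4 of 12, against 12.3% of all genes in either direction. Among them were C5ar1 at 1.18 (limma, adjusted p = 0.00185) and C3ar1 at 1.26 (adjusted p = 0.002). With all arrays the fellow receptor C3ar1 was at 1.00 with an adjusted p of 0.0642 and C2, a serine protease gene that acts after C1q, at -0.68 with 0.0942. Cx3cl1, the ligand of Cx3cr1, rose by 0.52 (adjusted p = 0.00168), and by 0.52 without that array (adjusted p = 0.0026), and of the haemoglobin handling genes on the same list none passed: Hp, the haptoglobin gene, was at -1.47 with 0.111 and Hmox1, which breaks down haem, at 0.29 with 0.576. Without that array C2 was at -0.52, Hp at -1.25 and Hmox1 at 0.41.

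Other markers of resident macrophages had differences of both signs. Of 22 measured genes 14 were higher and 8 lower in the valve, with a median of 0.15, none rose past the threshold and 1 fell, Cbr2, a carbonyl reductase gene, at -1.14 (adjusted p = 0.0013). Ms4a7 was at 1.12 with an adjusted p of 0.0519, Cd209f, a lectin gene, at -1.06 with 0.0711, Mertk, a receptor for dead cells, at -0.67 with 0.0734, Adgre1, the gene of F4/80, at 0.47 with 0.275 and Lyve1 at 0.28 with 0.682. Over the 15 arrays without aorta Eln+/- replicate 2 this list had 6 genes higher past the threshold, against 7.19% of all genes, and 2 lower. The lower ones were Cbr2 at -1.19 and Mertk at -0.81, and Adgre1 passed at 0.65 (limma, adjusted p = 0.0432). That array was the highest of all arrays in the mean of this list, so nothing is read from the added calls. The difference between this list and the members was not tested.

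Genes of antigen presentation and of leukocytes in general lay higher in the valve. Of 8 measured MHC class II genes 4 rose, H2-Ab1 by 1.09, H2-Aa by 1.34, Cd74 by 1.14 and H2-Eb1 by 0.86, with adjusted p of 0.00075 to 0.0123, none fell and the median was 0.73. All 13 general leukocyte genes were higher, with a median of 0.80, and 4 rose: Arhgdib by 0.98, Laptm5 by 0.80, Cd52 by 0.85 and Coro1a by 1.31, with adjusted p of 0.0078 to 0.0474. Ptprc, which encodes the common leukocyte antigen CD45, was at 0.96 with an adjusted p of 0.135. Of 11 genes of the phagocytic lysosome 2 rose, the protease gene Ctss by 1.43 (adjusted p = 0.0197) and Gpnmb by 0.66 (adjusted p = 0.0153), with a median of 0.47. Without aorta Eln+/- replicate 2 the calls were 5 of 8 for MHC class II, 8 of 13 for leukocytes, Ptprc at 1.26 (limma, adjusted p = 0.00798) among them, and 6 higher and 1 lower of 11 for the lysosome. Of all genes 7.19% were called higher in that fit, and 5.83% with all arrays. That array was the highest aorta array in the means of these lists, so nothing is read from the added calls.

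Lists of other blood cells were mixed, and each is given first with all arrays. All 11 measured T cell and thymocyte genes were lower in the valve, with a median of -0.35, and 1 fell, Lat, at -0.66 (adjusted p = 0.0417). Of 11 genes of monocytes and neutrophils 8 were lower, with a median of -0.14, and none passed. S100a8 was at -0.93 with an adjusted p of 0.314, and at -0.52 with 0.447 without aorta Eln+/- replicate 2, the array on which it was highest. Of 7 dendritic cell genes none passed, with Cd209a at 0.45 and Zbtb46 at -0.24, and of 6 B cell genes 1 rose, Blk, a kinase gene, at 1.02 (adjusted p = 0.0153). Of 7 mast cell genes all were higher and 1 rose, the protease gene Mcpt4 at 1.01 (adjusted p = 0.0237), and of 5 erythroid genes none passed. Without aorta Eln+/- replicate 2 the calls of these lists were those of Lat at -0.50, Blk at 1.02 and Mcpt4 at 1.07, the same 3 genes. The medians were then -0.27 for the T cell list, -0.12 for monocytes and neutrophils, -0.02 for B cells against -0.25 with all arrays, and -0.15 for erythroid genes in both fits.

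The wall and muscle cells of the pieces differed as well. All 12 cardiac muscle genes rose in the valve, with a median of 4.06, and 4 of 10 endothelial genes rose, Eng by 1.18 (adjusted p = 0.000568), Emcn by 1.76, Kdr by 1.38 and Robo4 by 1.26, the last with an adjusted p of 0.0588 without aorta Eln+/- replicate 2. Of 9 smooth muscle genes 5 fell and 1 rose, with Myh11 at -1.20, Acta2 at -1.48 and Mylk at -1.18 among those that fell and Des, which heart muscle makes as well, at 2.11. Of 8 fibroblast genes 4 rose, among them Lum and Tcf21 by 1.08 each, and of 5 adipocyte genes 1 fell, Ucp1, at -2.78 (adjusted p = 0.0467), a call that ended without aorta Eln+/- replicate 2 (adjusted p = 0.0725). Some genes of the endothelial and fibroblast lists were lower in the valve. The endothelial gene Pecam1 was at -0.04 within Eln+/+ mice and -0.86 within Eln+/- mice. The collagen genes Col1a1 and Col3a1 of the fibroblast list were at -0.15 and -0.27 in Eln+/+ and at -0.39 and -0.62 in Eln+/-. None of these values passed in limma. The part of these differences in cell content in the members' tissue difference was not tested. No list had a gene past the threshold for genotype in either tissue.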

How the data were processed

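Total RNA of 16 specimens was amplified, labelled and hybridised to Affymetrix mouse arrays, per the labels' protocols, and the submitters' processing notes name RMA for normalization. The deposited values are linear ratios to the median of a probe set over the 16 arrays, a reading taken from the values and not from a label: that median was 1 to within 1e-06 for 39827 of 45101 probe sets and below 1 for 5274. No genome build is given in the sources used here.

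After the log2 of each ratio was taken and 64 control probe sets were dropped, limma 3.58.1 in R 4.3.3 (lmFit and eBayes, 12 residual and 3.60 prior degrees of freedom) was fitted to 4 group means over all 16 arrays. All tests are two-sided and p-values were adjusted by Benjamini-Hochberg over 45037 probe sets and a threshold of 0.05. The probe set of highest SD stands for a gene. The comparisons were valve minus aorta as the mean of both genotypes and in each genotype, Eln+/- minus Eln+/+ in each tissue, and the interaction. The precision is limited by 4 arrays a group, and p-values measure the spread between these specimens. The alternatives left out arrays and changed the normalization, the weights, the fit, the covariates or the probe set of a gene. The fit was tested on simulated data. Same-numbered arrays deviated with correlations of -0.146 to 0.0711, none over 0.1, so numbers were not taken as pairs.

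Besides the members, 20 further lists were described by counts and medians, with up to 4 genes of lowest p named from each, the direct partners of the members, and the 8 most and 4 least alike genes. The members and lists were chosen with earlier results of these data known.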

Additional observations from a re-analysis of the deposited data

Results flagged for a closer look

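In 5 of 44 groups of 4 arrays tested, the value farthest out was separated from the others by a gap that took a larger share of the group's whole range than Dixon's test allows, and chance flags about 1 in 20 groups. The share was 0.992 for Cx3cr1 in aorta Eln+/-, where replicate 2 stood at 1.66 and the rest at -0.48 to -0.46. It was 0.854 for Mrc1 in the same group, with replicate 2 at 1.22 and the rest at -0.61 to -0.35. For Mrc1 in valve Eln+/+ it was 0.893, with replicate 3 at 0.86 and the rest at 0.29 to 0.35. For Cd14 in aorta Eln+/+ it was 0.846, with replicate 2 at 0.45 and the rest at -0.35 to -0.23. For Csf1r in valve Eln+/+ it was 0.832, with replicate 2 at -0.32 and the rest at 0.19 to 0.29.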

How the results depend on the processing

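The number of members called higher in the valve was 2 for the mean of both genotypes, 0 in Eln+/+ and 1 in Eln+/-, while 9.63%, 1.32% and 7.06% of all genes were called in either direction. Shares of all genes in brackets are in that order or for the counts printed. Leaving out 1 array at a time gave 1 to 9, 0 to 2 and 0 to 9, with the highest counts each without aorta Eln+/- replicate 2 (12.3%, 1.67% and 9.28%). Without both aorta Eln+/- replicates 2 and 4 the counts were 8, 3 and 4 (9.15%, 1.76% and 4.46%). Quantile normalization gave 4 for the mean and 0 in Eln+/- (9.9% and 6.65%), array weights 6 and 3 (11.6% and 8.75%). A fit of only the groups compared gave 1 in Eln+/+ and 0 in Eln+/- (1.23% and 4.66%), and the Xist minus Y-linked covariate 0 in Eln+/- (6.71%). With the replicate block the count was 3 for the mean (8.26%) and 0 in Eln+/- (5.91%), where Cd14 had an adjusted p of 0.077, and the block changed no other count. Among alternatives chosen after seeing the data, the thymocyte list mean as a covariate gave 5 for the mean and 1 in Eln+/+ (7.32% and 1.25%), with a median of 1.41 in Eln+/-, and averaged probe sets without aorta Eln+/- replicate 2 gave 9, 3 and 9 (15.2%, 2.56% and 12.2%). The cause of these changes was not tested. Over the alternatives 1670 values of single members were recomputed: 63 newly passed, 19 no longer passed and 0 called values changed sign. Among the values not called 84 changed sign, and 4 of the 830 values of the tissue comparisons did so. No member passed for genotype or interaction under any alternative. Because ratios keep no signal over background, dim probe sets could not be set apart.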
